A study of Mus musculus with 9 samples.

Results

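The 9 genes described here make up the imprinted domains around Peg10 and Mest on mouse chromosome 6. The Peg10 domain holds Peg10, Sgce, Ppp1r9a, Pon2, Pon3 and Asb4, and the Mest domain holds Mest, Copg2 and Klf14. The genes were found by symbol among 30232 gene rows of a count table, each in a row of its own, and 7 of the 9 were among the 12645 genes with enough counts to be tested. The set was chosen by measured values that had been seen in these data. For Peg10 this was the difference between knockout and wild-type libraries. For Mest it was that difference in one of the cell lines, and how it changed between lines. Those knockout values of Peg10 and Mest are therefore given as descriptions without a p-value.

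The 9 RNA libraries came from mouse embryonic stem cells. Of these, 4 were wild type and 5 carried a knockout of Gzf1, a zinc finger gene. All cells grew in serum medium with LIF on a layer of irradiated mouse embryonic fibroblasts, called feeders, which were depleted before harvest. The RGM line, sequenced as run2, gave the libraries numbered 1 and 2 of each genotype. In run1 the V6.5 line gave wild-type library 3 and the knockout libraries 3 to 5, and a line called Cas9-GFP gave wild-type library 4. Run and cell line therefore cannot be told apart, and no Cas9-GFP library carries the knockout. The sources used here do not give the edit, the number of clones or whether libraries came from separate cultures, so a p-value here refers to the spread among libraries, part of which may be technical.

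Imprinted genes are transcribed mainly from the copy inherited from one parent, which is set by DNA methylation laid down in egg or sperm. Peg10 and Sgce start next to each other, run in opposite directions and are known for expression from the paternal copy, while Ppp1r9a, Pon2, Pon3 and Asb4 are known for maternal expression in some tissues only. Mest is paternally expressed from a promoter that is methylated on the maternal copy, and Copg2 and Klf14 are known for maternal expression in some tissues. Zfp57, a zinc finger protein of embryonic stem cells, binds a short methylated motif and protects such imprints. The counts used here do not separate the parental copies.

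On the GRCm38 build (also called mm10) with the GENCODE M21 annotation, Sgce lies at chromosome 6, 4674350 to 4747207 on the minus strand, and Peg10 at 4747306 to 4760517 on the plus strand, 98 bases away. Ppp1r9a follows at 4902917 to 5165661 (plus), Pon3 at 5220852 to 5256286 (minus), Pon2 at 5264147 to 5298455 (minus) and Asb4 at 5383386 to 5433022 (plus). Mest lies at 30723547 to 30748465 (plus), Copg2 at 30747554 to 30896794 (minus) and Klf14 at 30956023 to 30959078 (minus) of the same chromosome. The starts of Peg10 and Mest are 26.0 Mb apart. The 3' ends of Mest and Copg2 overlap by 912 bases on opposite strands. How strand was handled in counting is not given, so reads from that overlap cannot be assigned to either gene from these counts.

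The letters before the start sites of Mest and Copg2 are shown because these neighbours differed in opposite directions between the lines. They are RefSeq sequences of build GRCm38.p6, 250 bases upstream of a start, written 5' to 3' in the direction of the gene. Capitals mark the motif TGCCGC, the hexamer known to be bound by Zfp57 when methylated, searched on both strands; it appears here as its reverse complement GCGGCA. The Mest window is chr6:30737800-30738049 (plus strand) and the Copg2 window is chr6:30896795-30897044 (minus strand).
Mest: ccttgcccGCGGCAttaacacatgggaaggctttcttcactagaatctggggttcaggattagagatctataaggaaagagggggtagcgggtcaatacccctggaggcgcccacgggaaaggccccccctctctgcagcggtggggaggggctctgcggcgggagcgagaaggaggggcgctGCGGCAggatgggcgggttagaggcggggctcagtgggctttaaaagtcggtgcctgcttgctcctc
Copg2: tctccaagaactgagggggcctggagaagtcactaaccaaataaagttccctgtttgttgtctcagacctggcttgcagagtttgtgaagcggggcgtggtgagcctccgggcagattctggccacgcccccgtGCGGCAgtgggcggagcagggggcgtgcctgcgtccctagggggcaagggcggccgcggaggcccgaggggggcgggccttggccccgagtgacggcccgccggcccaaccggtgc

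The table of 300-base promoter windows, which run on for a further 50 bases past the start, matched 6 of the 9 members: Mest, Copg2, Pon2, Pon3, Ppp1r9a and Asb4. Mest held 2 matches in this window and Copg2 held 1, both counts the same in the upstream 250 bases shown. An upstream Mest window, 30733256 to 30733555, held 0 matches. Pon3 held 1 match, and the windows of Pon2, Ppp1r9a and Asb4 held 0. Of all 32851 windows in the table, 11.6% held at least 1 match and 1.53% held at least 2. CG pairs numbered 17 in the Mest window shown and 8 in the upstream one, 25 in that of Copg2, 31 in that of Pon2 and 7 in that of Pon3. Ppp1r9a had 48 and 10 in its 2 windows and Asb4 had 6 and 8, against a median of 7 over all windows. These matches describe letters and not binding, and no methylation was measured here.

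The libraries held 2568489 to 3704162 counts in RGM cells and 4872127 to 7072697 in run1, so the RGM values rest on fewer counts. Levels are CPM, counts scaled to library sizes adjusted by the trimmed mean of M values (TMM). A floor of 3 counts corresponded to 0.412 to 1.18 CPM, which covers counting error only. For Gzf1 itself the 4 wild-type libraries gave 28.6, 30.0, 8.11 and 18.7 CPM and the 5 knockout libraries gave 5.45, 14.2, 1.66, 9.40 and 5.24 CPM. Knockout replicates 2 and 4 lay above wild-type replicate 3. Where the edit lies relative to the counted 3' ends is not known, so these counts cannot check it. Genotypes below are therefore those of the labels. The 15 embryonic stem cell markers summed to 5795 to 7937 CPM, and all 15 had counts in every library.

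Mest, Copg2 and Sgce differed between the lines, and Peg10 did not pass that test. Mest was many times lower in RGM cells than in run1, while Copg2, its neighbour on the opposite strand, and Sgce, the neighbour of Peg10, were several times higher in RGM cells. These separations were complete across all 9 libraries. How many of all tested genes separate in the same way was not counted. Non-overlap of groups, here and below, is therefore a description and not a result particular to the members. None of the 5 members tested for an effect of the knockout passed. Descriptively, the genotypes of RGM cells did not overlap for Mest, Copg2 and Ppp1r9a, all lower in the knockout. Their ratios of means were 0.321, 0.929 and 0.920. Peg10 was higher in all 3 knockout libraries of run1 than in both wild-type ones.

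**Figure D1:**
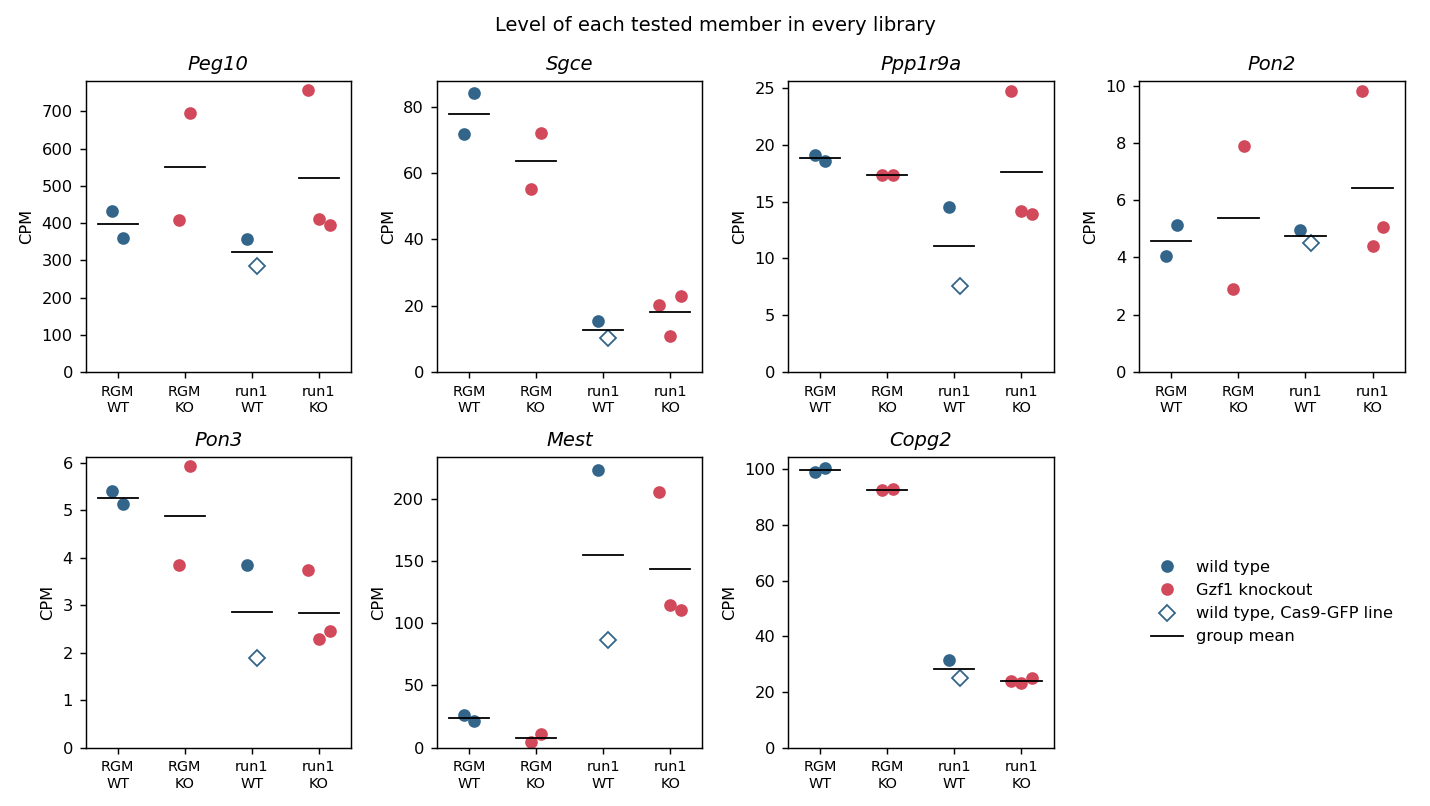
Level of each of the 7 tested members in CPM (linear axis from 0) in every library, grouped as RGM wild type, RGM knockout, run1 wild type and run1 knockout; points are single libraries, open diamonds the Cas9-GFP library and bars the group means. Sgce and Copg2 are higher in all 4 RGM libraries than in all 5 run1 libraries, and Mest is lower.

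Mest encodes a protein of the alpha/beta hydrolase fold and is widely transcribed in mesoderm and in embryonic stem cells. It was at 26.4 and 21.7 CPM in RGM wild-type replicates 1 and 2, and at 4.80 and 10.7 CPM in RGM knockout replicates 1 and 2. In run1 it was at 223 CPM in the V6.5 wild-type library, 86.5 CPM in the Cas9-GFP library, and 206, 114 and 111 CPM in knockout replicates 3, 4 and 5. All 4 RGM libraries lay below all 5 run1 libraries, with the highest RGM library well under the lowest of run1. In wild-type cells the difference was a log2 fold change of -2.68 (SE 0.47), or 6.40-fold lower in RGM cells. Its adjusted p was 0.0029 in edgeR's quasi-likelihood test over all 12645 genes. The wild-type libraries of this contrast also enter the knockout values by which Mest was chosen. Among the tested genes 1.46% had a lower value in this contrast.

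Within the RGM line the genotypes did not overlap for Mest, which was lower in the knockout, with means of 7.73 ± 4.14 CPM (SD, n = 2) and 24.1 ± 3.33 CPM (SD, n = 2). The knockout libraries rest on 15 and 27 counts, and the wild-type libraries on 98 and 55. The log2 fold change of knockout against wild-type was -1.68 (SE 0.56) in RGM cells. It ranged from -2.33 without knockout replicate 2 to -1.18 without knockout replicate 1. These counts are the thinnest of any Mest value. Because the RGM groups did not overlap, leaving out 1 RGM library could not change the sign.

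In run1 the genotypes overlapped for Mest, with a wild-type mean of 155 ± 96.3 CPM (SD, n = 2) and a knockout mean of 144 ± 53.7 CPM (SD, n = 3). The log2 fold change was -0.11 (SE 0.38), and it became 0.73 without wild-type replicate 3 and -0.63 without wild-type replicate 4. The wild-type mean thus depends on which of the V6.5 and Cas9-GFP libraries is used: all 3 V6.5 knockout libraries lay below the V6.5 wild-type library and all 3 above the Cas9-GFP library. The difference between the knockout effects, run1 minus RGM, was 1.57 (SE 0.68) on the log2 scale, and 1.04 to 2.41 when single libraries were left out (lowest without wild-type replicate 4, highest without wild-type replicate 3). Over all 9 libraries the plain wild-type mean was 89.3 ± 93.7 CPM (SD, n = 4) and the plain knockout mean 89.3 ± 83.6 CPM (SD, n = 5). With run as a term the log2 fold change was -0.61 (SE 0.38). It was -1.08 (SE 0.30) with cell line in place of run, the same as without the Cas9-GFP library, and -0.37 without knockout replicate 1. The equal plain means come from libraries of both lines pooled, 3 of the 5 knockout libraries being from run1 against 2 of the 4 wild-type ones. Among the knockout libraries alone Mest was 19.0-fold lower in RGM cells than in run1 (log2 fold change -4.25, SE 0.52).

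Copg2 encodes a gamma subunit of COPI, the coat of vesicles that carry cargo from the Golgi back to the endoplasmic reticulum. It was at 98.9 and 101 CPM in RGM wild-type and 92.6 and 92.7 CPM in RGM knockout libraries. The run1 libraries were at 31.5 CPM (V6.5) and 24.9 CPM (Cas9-GFP) in wild-type, and 23.9, 23.2 and 24.9 CPM in the knockout. Every RGM library was above every run1 library, and replicates of a line differed little. The contrast of wild-type lines gave a log2 fold change of 1.82 (SE 0.21, edgeR, adjusted p = 0.00022), 3.53-fold higher in RGM cells. The knockout libraries gave 1.95 (SE 0.18, edgeR, adjusted p = 4.7e-05), in a contrast added after seeing the data. They share no library with the wild-type contrast. The same estimate of spread served both contrasts, and run coincides with line in both. The estimate ranged from 1.66 to 2.00 in wild-type cells when single libraries were left out.

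The knockout contrasts of Copg2 were small, with log2 fold changes of -0.17 (SE 0.13) over all libraries, -0.11 (SE 0.20) in RGM cells and -0.23 (SE 0.19) in run1. In RGM cells the knockout values did not overlap those of wild type, with a ratio of means of 0.929. The count of Copg2 per count of Mest, taken within a library so that library size does not enter, was 3.74 to 19.3 in RGM cells and 0.116 to 0.288 in run1. Copg1, which encodes the other gamma subunit from a gene outside the domain, did not pass in the contrast of wild-type lines (log2 fold change 0.20, SE 0.22, edgeR, adjusted p = 0.54). There were 1.85 to 2.03 counts of Copg1 per count of Copg2 in RGM libraries and 4.05 to 6.87 in run1. The balance of the counts of the 2 gamma subunits thus had no overlap between lines.

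Peg10 derives from a retrotransposon and encodes a gag-like protein that is needed for the placenta. It was at 433 and 359.9 CPM in RGM wild-type replicates 1 and 2, and at 407 and 697 CPM in the RGM knockout. In run1 it was at 358 CPM in the V6.5 wild-type library, 286 CPM in the Cas9-GFP library, and 758, 411 and 396 CPM in knockout replicates 3, 4 and 5. All 3 run1 knockout libraries were above both run1 wild-type libraries, while in RGM cells the genotypes overlapped. Knockout replicates 2 and 3 stood well above the other libraries of their lines.

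Group means of Peg10 were 396 ± 51.6 (SD, n = 2) and 552 ± 205 CPM (SD, n = 2) in RGM wild-type and knockout cells, and 322 ± 51.4 (SD, n = 2) and 522 ± 205 CPM (SD, n = 3) in those of run1. The log2 fold change of the knockout was 0.60 (SE 0.22) over all libraries, 0.48 (SE 0.33) in RGM cells and 0.70 (SE 0.30) in run1, with a difference between lines of 0.22 (SE 0.44). It was 0.04 in RGM cells without knockout replicate 2 and 0.32 in run1 without knockout replicate 3, so these single libraries carry much of the value. Peg10 did not pass between the wild-type lines (log2 fold change 0.30, SE 0.33, edgeR, adjusted p = 0.53), and between the knockout lines its log2 fold change was 0.08 (SE 0.30).

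Sgce encodes epsilon-sarcoglycan, a membrane protein of the dystrophin-associated complex. It was at 71.7 and 84.1 CPM in RGM wild-type and 55.1 and 72.2 CPM in RGM knockout libraries. The run1 levels were 15.2 CPM (V6.5) and 10.4 CPM (Cas9-GFP) without the knockout, and 20.2, 10.9 and 22.9 CPM with it. The lowest RGM library was above the highest run1 library. The contrast of wild-type lines gave a log2 fold change of 2.59 (SE 0.34, edgeR, adjusted p = 0.00050), 6.02-fold higher in RGM cells, and 98.6% of tested genes had a lower value. That of the knockout libraries gave 1.81 (SE 0.29, edgeR, adjusted p = 0.0012).

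Although Peg10 and Sgce start within 98 bases of each other, their balance differed between the lines. There were 4.28 to 9.64 counts of Peg10 per count of Sgce in RGM libraries and 17.2 to 37.9 in run1, with no overlap. For the knockout, the log2 fold change of Sgce was 0.11 (SE 0.24) over all libraries, -0.29 (SE 0.32) in RGM cells and 0.49 (SE 0.31) in run1. The genotypes overlapped in both lines. The signs of the 2 lines were opposite, and the difference between them, 0.78 (SE 0.44), did not pass (edgeR, adjusted p = 0.99996).

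**Figure D2:**
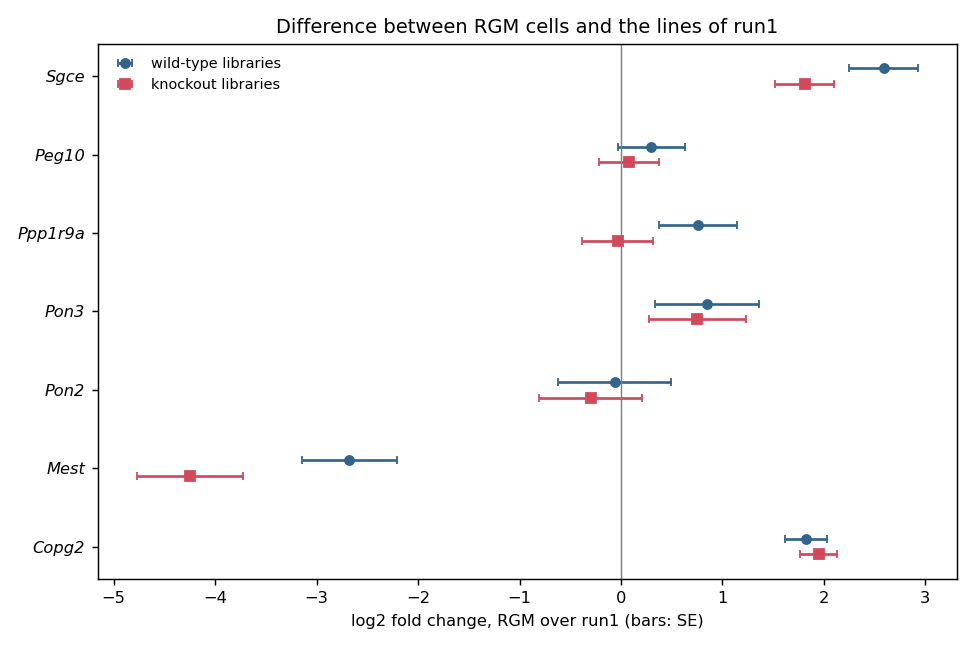
Log2 fold change of RGM against run1 cells with its SE for the tested members, in wild-type and in knockout libraries. Copg2 (1.82 and 1.95) and Sgce (2.59 and 1.81) are above 0 and Mest (-2.68 and -4.25) is below 0 in both, while Peg10 (0.30 and 0.08) lies near 0.

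The other members of the Peg10 domain were measured at low levels. Ppp1r9a, which encodes neurabin, an actin-binding scaffold of protein phosphatase 1, was at 19.1 and 18.5 CPM in RGM wild-type and 17.3 and 17.4 CPM in RGM knockout libraries. The run1 levels were 14.6 and 7.54 CPM for wild type and 24.7, 14.2 and 13.9 CPM for the knockout. The RGM values lay close together, with both knockout values below both wild-type ones. Those of run1 were spread, and the lines overlapped. The contrast of wild-type lines did not pass (log2 fold change 0.76, SE 0.38, edgeR, adjusted p = 0.17), and the same contrast in knockout cells was near 0 (-0.03, SE 0.35, edgeR, adjusted p = 0.96). The knockout contrast of Ppp1r9a gave -0.12 (SE 0.39) in RGM cells and 0.67 (SE 0.34) in run1. The run1 value was 0.28 without wild-type replicate 4 (V6.5 cells alone), 0.33 without knockout replicate 3 and 1.23 without wild-type replicate 3.

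Pon2 and Pon3 encode paraoxonases, enzymes that hydrolyse lactones. Pon2 was at 4.04 and 5.13 CPM in RGM wild-type, 2.88 and 7.89 CPM in RGM knockout, 4.95 and 4.52 CPM in run1 wild-type, and 9.82, 4.39 and 5.08 CPM in run1 knockout libraries. Its highest values fell in knockout replicates 2 and 3, the libraries that were also highest for Peg10. Pon3 was at 5.39 and 5.13 CPM in RGM wild-type, 3.84 and 5.92 CPM in RGM knockout, 3.85 and 1.88 CPM in run1 wild-type, and 3.73, 2.30 and 2.46 CPM in run1 knockout libraries. Neither gene passed in any contrast. In the contrast of wild-type lines Pon2 had a log2 fold change of -0.06 (SE 0.56) and Pon3 one of 0.85 (SE 0.51, edgeR, adjusted p = 0.24).

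Asb4, which encodes an ankyrin repeat protein of ubiquitin ligase complexes, and Klf14, a zinc finger transcription factor gene without introns, were below the count filter. For Asb4 the wild-type libraries held 0, 1, 3 and 3 counts and the knockout libraries 2, 0, 11, 4 and 3. Klf14 had between 0 and 2 counts in every library. Most of these values were at or under the floor of 3 counts. Genotypes were permuted within runs in an exact test (two-sided), which gave p = 0.317 for Asb4 (difference of 0.37 in log2 CPM with a prior count of 2) and p = 0.45 for Klf14 (0.22), the smallest p that its 60 arrangements allow being 0.0167. A difference was not detectable at this depth.

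Of the 5 tested members whose knockout contrast had not entered the choice of genes (Sgce, Ppp1r9a, Pon2, Pon3 and Copg2), 0 passed over all libraries, where edgeR called 0.0316% of all tested genes. Within RGM cells 0 of 5 passed against 0% of tested genes, and within run1 0 of 5 against 0.0158%. The difference of the knockout effect between the lines called 0 of 5 members and 0% of tested genes. The members' unadjusted p-values (edgeR) were at lowest 0.21, 0.38, 0.075 and 0.10 in these 4 comparisons, so 0 were under 0.05 in each. Of all 12645 tested genes, 293 over all libraries, 104 in RGM cells, 485 in run1 and 182 in the difference had an unadjusted p (edgeR) under 0.05. Each of these is a share below 0.05, so the tests call few genes of any kind. DESeq2 called 7, 2, 4 and 0 genes in these 4 comparisons at an adjusted p under 0.05. The member shares are thus at the background, which is itself close to 0 in these comparisons.

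**Figure D3:**
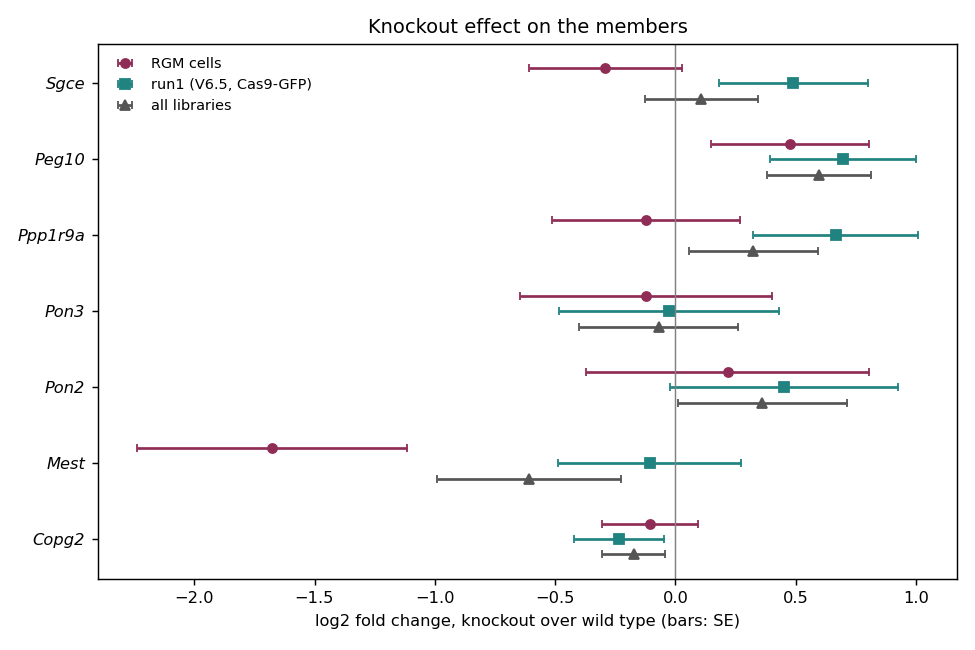
Log2 fold change of Gzf1 knockout over wild type with its SE for the tested members, in RGM cells, in run1 and over all libraries. Mest has -1.68 in RGM cells and -0.11 in run1, Peg10 is above 0 in both (0.48 and 0.70), and Sgce and Ppp1r9a are below 0 in RGM cells and above 0 in run1, with SE bars that reach 0 in RGM cells.

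Between the wild-type lines, 3 of the 7 tested members passed in edgeR. The 2 that were higher in RGM cells, Sgce and Copg2, stand beside 12.1% of all tested genes called higher, and Mest, the one that was lower, beside 12.3% called lower. The median log2 fold change was 0.76 over the 7 members and -0.01 over all tested genes. In the knockout libraries 2 of the 5 members tested passed, Sgce and Copg2 again and both higher, against 12.6% of genes called higher and 12.4% lower. The wild-type libraries of this contrast also enter the knockout contrasts above. When single libraries were left out, the wild-type value ranged from -3.21 to -1.84 for Mest, 2.34 to 2.90 for Sgce and 1.66 to 2.00 for Copg2. Leaving out a knockout library hardly changes these wild-type values. Only the fits without 1 of the 4 wild-type libraries therefore test them, and those fits leave 1 library in a group. For Mest the wild-type value was -1.84 without wild-type replicate 3 and -3.21 without the Cas9-GFP library.

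Genes around the domains were read within 1500 kb of the Peg10 and Mest starts. Of 7 tested neighbours of Peg10, 0 passed in any knockout contrast and 3 were higher in RGM cells in both genotypes: Bet1, Col1a2 and Slc25a13. Every count of calls between wild-type lines, here and below, stands beside 12.1% of all tested genes called higher and 12.3% lower. Bet1, which encodes a SNARE of transport between the endoplasmic reticulum and the Golgi, had a log2 fold change of 1.05 between wild-type lines (SE 0.20, edgeR, adjusted p = 0.0033). Col1a2, a collagen chain of fibroblasts, had 1.25 (SE 0.35, edgeR, adjusted p = 0.022), and Slc25a13, a mitochondrial carrier of aspartate and glutamate, had 0.81 (SE 0.23, edgeR, adjusted p = 0.023). Genes called between the lines thus lay on both sides of Peg10, and such calls were common over all tested genes. Casd1, past the 3' end of Sgce and known as an imprinted gene in some tissues, had -0.03 (SE 0.40, edgeR, adjusted p = 0.97). Pdk4, a mitochondrial kinase gene beyond the paraoxonases, had 1.17 (SE 0.50, edgeR, adjusted p = 0.10).

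Around Mest, 0 of 20 tested neighbours passed in a knockout contrast. Between the wild-type lines 5 were higher and 1 lower, against 12.1% and 12.3% of all tested genes. The genes higher in RGM cells were Tmem209, Zc3hc1, Ube2h, Ahcyl2 and Calu, and the lower one was Tnpo3; all but Tmem209 and Zc3hc1 are named after their values were seen. Tmem209, whose row is merged with a transcript of another name, rose by a log2 fold change of 1.17 (SE 0.18, edgeR, adjusted p = 0.0012), and Zc3hc1 had 0.91 (edgeR, adjusted p = 0.0031). Cep41, the nearest tested gene before Mest, had -0.38 (SE 0.42, edgeR, adjusted p = 0.54) and so did not share the lower call of Mest. Beyond Copg2, Mkln1 had -0.02 (SE 0.26) and Podxl 0.49 (SE 0.29), and neither passed. Mir335, the microRNA gene within Mest, had 1 count in all libraries together. Lists of genes from a wider stretch around each domain were read in the same way. Around Peg10 6 of 13 tested genes were higher and 0 lower between wild-type lines, among them Shfm1 (1.13) and Asns, asparagine synthetase (0.74). Around Mest 4 of 13 were higher and 1, Exoc4, was lower (-2.16).

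**Figure D4:**
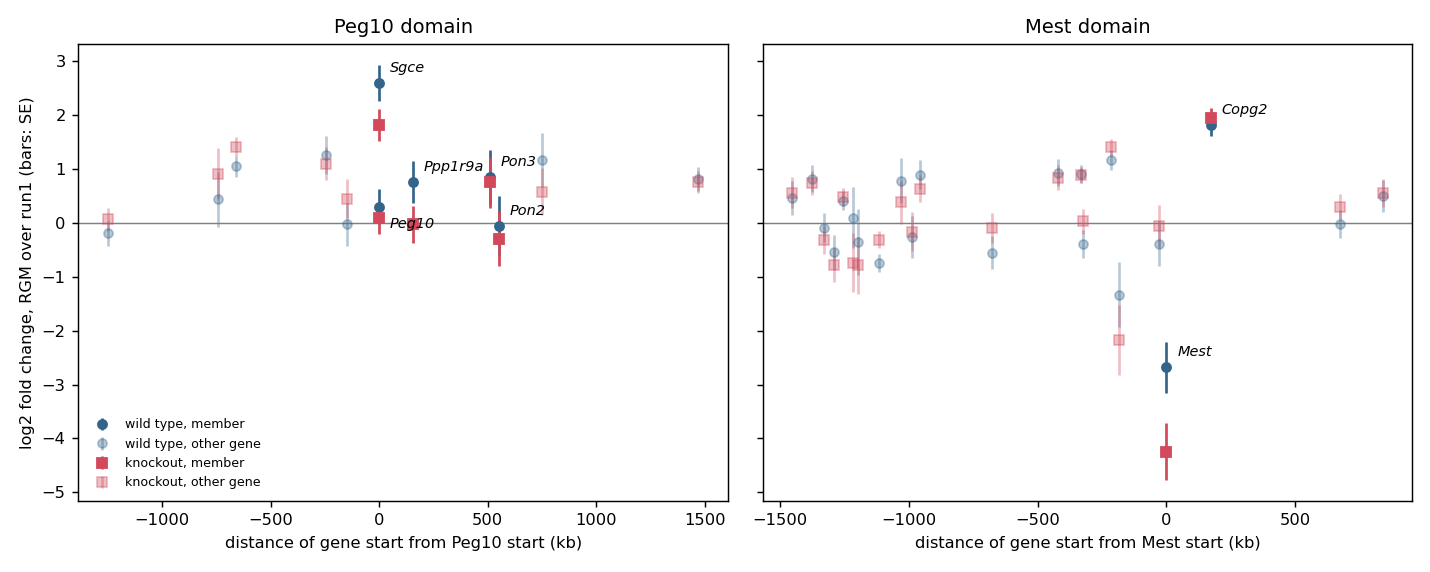
Log2 fold change of RGM over run1 cells with its SE, in wild-type (circles) and knockout (squares) libraries, for tested genes by distance in kb of their start from the Peg10 start (left) and the Mest start (right); members are dark and labelled, other genes pale. Among wild-type libraries Mest at -2.68 and Copg2 at 1.82 lie on either side of 0, with Cep41 (-0.38) just before Mest, and Sgce at 2.59 stands above Peg10 at 0.30.

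Gene lists linked to the members by function gave 0 calls in each of the 4 knockout comparisons. Among other subunits and regulators of COPI, 4 of 14 tested rows (Copg2 included) were higher and 1 lower between wild-type lines, with a median of -0.11. The row of Copz2, a zeta subunit of the coat, had 1.54 (SE 0.29, edgeR, adjusted p = 0.0032), Arfgap3 had 1.11, Arf1, the small GTPase that recruits the coat, had 0.61, and Arfgap1 had -1.04. Copb2, a beta-prime subunit, had -0.36 (SE 0.17, edgeR, adjusted p = 0.14). The one lower call was thus Arfgap1, a regulator of the coat and not a subunit. Of 9 tested genes of the sarcoglycan and dystrophin complex, 3 were higher and 0 lower, with a median of 0.18: Sgce itself, Dtna, which encodes dystrobrevin alpha (2.47), and Utrn, which encodes utrophin (1.36). Dag1, which encodes dystroglycan, had -0.54 (SE 0.21, edgeR, adjusted p = 0.074).

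Among 10 tested genes derived from retrotransposon gag genes, Peg10 included, 1 was higher and 3 were lower in wild-type RGM cells, with a median of -1.12. The row holding Moap1 had 0.66, and Pnma2 (-1.84), Pnma5 (-3.04) and Zcchc12 (-1.57) were lower. Of 27 other imprinted genes tested, most of them known for paternal expression, 3 were higher and 8 lower, with a median of -0.35. The 8 lower ones included Peg12 (-2.51), Kcnq1ot1 (-1.80), Peg3 (-1.77), Ndn (-1.71) and the Snrpn;Snurf row (-0.91). The higher ones were Igf2 (2.59), Inpp5f (1.15) and Zfp64 (0.98). All of these but the Snrpn;Snurf row were named after their values were seen. Gnas had -0.14 (edgeR, adjusted p = 0.60). Of 19 tested factors that protect or write imprints, 1 was higher and 4 were lower, with a median of 0.08. Dnmt3l, a cofactor of methyltransferases in germ cells, had 0.95 (SE 0.20, edgeR, adjusted p = 0.0061). Zfp57 had -1.98 (SE 0.35, edgeR, adjusted p = 0.0028), and the other lower ones were Naa10, Cbx5 and Atrx. Trim28, the corepressor of Zfp57, had 0.01 (SE 0.21). These lists share libraries with the members, and their part in the line differences of Mest, Copg2 and Sgce was not tested.

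Markers of other cells moved with the lines as well. The 32 fibroblast markers, listed to follow remaining feeders, summed to 6154 to 9723 CPM in RGM libraries and 3946 to 5534 CPM in run1, with no overlap. Whether other cells in the libraries also express these markers was not tested. Of 31 tested, 12 were higher and 0 lower between the wild-type lines (median 0.81), among them Fn1 (1.09) and Vim (1.32). In the knockout contrast over all libraries 0 passed, and the median was 0.15. Within each line the highest sum fell in the library with the most Peg10: knockout replicate 2 with 9723 CPM in RGM cells and knockout replicate 3 with 5534 CPM in run1. The other libraries did not all follow that order. The lowest RGM sum, in knockout replicate 1, went with more Peg10 (407 CPM) than wild-type replicate 2, whose sum was 7053 CPM (Peg10 359.9 CPM). The lowest run1 sum, in knockout replicate 5, went with more Peg10 (396 CPM) than wild-type replicate 3, whose sum was 4777 CPM (Peg10 358 CPM). Sgce, Copg2 and Mest followed the line in the same libraries in which these sums did. The part of feeder RNA in the values of Peg10, Sgce, Copg2 and Mest was not tested, and in bulk RNA more cells of a type and more RNA per cell cannot be told apart.

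**Figure D5:**
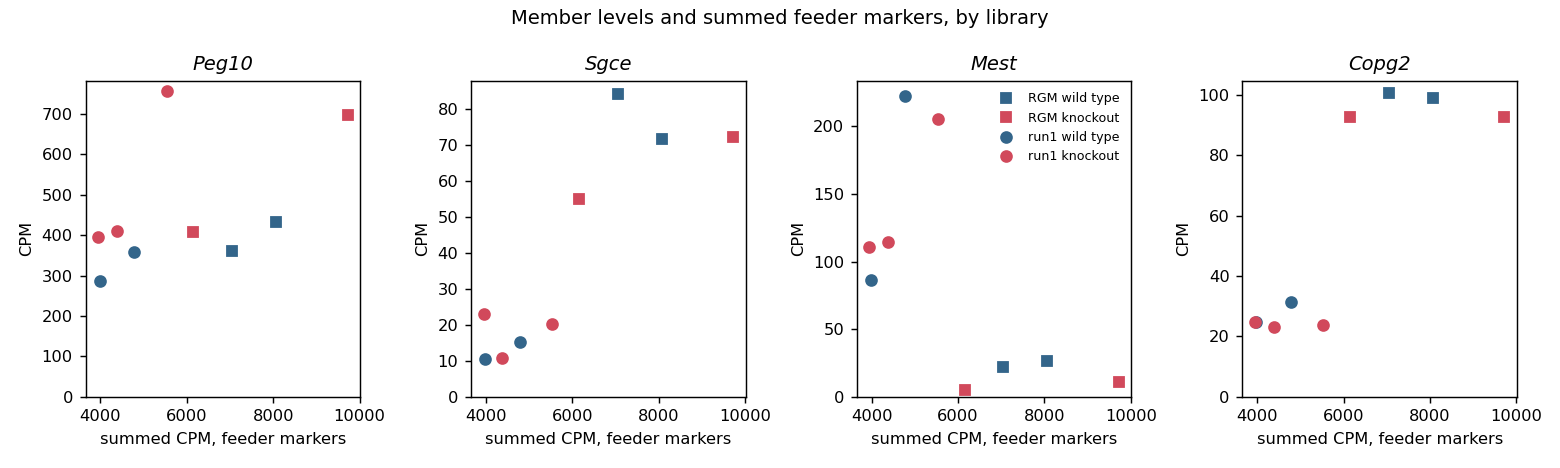
Peg10, Sgce, Mest and Copg2 in CPM against the summed CPM of 32 fibroblast markers, one point per library, squares for RGM cells and circles for run1, coloured by genotype. The RGM libraries (6154 to 9723 CPM) lie to the right of those of run1 (3946 to 5534 CPM). Within each line the library with the largest sum has the most Peg10, but the library with the smallest sum does not have the least.

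Other lineages had lower sums. Primitive endoderm markers summed to 692 to 1064 CPM, most of it from Sparc, which is also on the fibroblast list and had group means of 594 to 685 CPM. The endoderm regulator Gata6 was at 14.4 CPM in knockout replicate 5 and at most 3.13 CPM elsewhere. The sums were 122 to 268 CPM for trophoblast markers and 20.9 to 49.3 CPM for mesendoderm markers. The trophoblast regulators Cdx2 and Elf5 had 0 to 2 counts in every library, while other genes of that list were expressed. In run1 the means of Phlda2 were 34.4 CPM for wild type and 55.7 CPM for the knockout. Those of Ascl2, named after its values were seen, were 8.75 and 16.2 CPM. Tfap2c, the most highly expressed of the list, went the other way, from 96.2 to 79.8 CPM. Of the 10 tested trophoblast markers, 7 had a log2 fold change above 0 and 3 one below it. In that contrast 0 of 10 tested trophoblast markers passed, with a median log2 fold change of 0.31 against 0.02 over all tested genes. The trophoblast sum was 268, 122 and 263 CPM in knockout replicates 3, 4 and 5, against 215 and 177 CPM in the run1 wild-type libraries, and knockout replicate 3 is also the library with the most Peg10. For RGM cells the sums were 180.3 and 207 CPM for wild type and 223 and 147 CPM for the knockout, the lowest being replicate 2, the RGM library with the most Peg10. Mixl1, a mesendoderm gene, had 1 to 5 counts, and T, which encodes brachyury, had 13 to 21 counts in RGM cells and 0 to 2 in run1. Between wild-type lines 4 of 9 tested endoderm markers were higher and 0 lower, 4 of 7 mesendoderm markers higher and 1 lower, and 1 of 10 trophoblast markers higher. Of the 15 stem cell markers, 2 were higher and 2 lower. The part of these differences in the member values was not tested.

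Likeness between genes was measured as Pearson's r of log2 CPM over the 9 libraries, given without a p because the points share libraries, depth and line. The genes most like Peg10 were Nedd4, a ubiquitin ligase (r = 0.893), Lrrc56 (0.875) and Bdnf, a neurotrophin (0.865). After the mean of each run was subtracted they were Ppp1r12c (0.930), 1110032A03Rik (0.929) and Gse1 (0.928). Among the members Pon2 was closest to Peg10, with r = 0.748 and, after subtraction, 0.816, followed by Ppp1r9a with 0.727 and 0.735. Sgce, its nearest neighbour, had 0.284 and 0.426.

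Mest was most like Gsg2, the histone kinase haspin (r = 0.992), AK201904 (0.981) and Wdr41 (0.976), all of which were also lower in RGM cells. After subtraction of run means the closest were Hyls1 (0.969), Gsg2 (0.950) and S100a11 (0.929). Copg2 had r = -0.881 with Mest and Sgce had -0.802, and after subtraction these became 0.504 and 0.503. Run1 holds V6.5 and Cas9-GFP cells, so the subtracted values still contain the difference between those 2 lines.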

How the data were processed

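The authors deposited a table of raw counts per gene symbol for 9 poly(A)+ RNA libraries made with MARS-seq2.0, which counts 3' ends, per the labels' protocols. The submitters' processing notes name STAR, DESeq2 and mm10. No source used here states the annotation, the strand handling or the use of molecular identifiers. The 92 spike-in rows were left out. Genes were kept with filterByExpr (minimum count 10), normalized by TMM and fitted in edgeR 4.0.16 (R 4.3.3), whose robust quasi-likelihood test used genotype plus run as terms, or 4 groups (genotype by run). P-values were adjusted by Benjamini-Hochberg over 12645 genes at a threshold of 0.05. Each SE follows from the F statistic, as the size of the log2 fold change over the root of F. The contrast of lines among knockout libraries was added after seeing the data. DESeq2 1.42.0 and limma 3.58.1 gave alternatives, and the code was tested on simulated data.

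The members and the 13 other gene lists were chosen with earlier results of these data known. Genes named are the members, Gzf1, list members passing in a knockout contrast or else the 2 most highly expressed of a list, up to 3 tested neighbours on either side of each domain, and the 3 most alike to Peg10 and to Mest. Other list genes past the threshold between lines were named after their values were seen. A gene that this rule takes in is not reported here.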

Additional observations from a re-analysis of the deposited data

How the results depend on the processing

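Of 553 member log2 fold changes under other settings, 514 kept direction and call, 6 moved and 33 changed sign, the latter all at values without a call. Many of the 514 come from leaving out a library that the contrast does not use, which can hardly move its value. For Sgce, knockout over all libraries, the sign changed with limma voom (-0.21), without the run term (-0.32), with the replicate block (-0.0546) and with cell line in place of run (-0.0755). The other sign changes came from leaving out 1 library, which gave these log2 ranges. Over all libraries they were -0.0763 to 0.265 for Sgce and -0.265 to 0.165 for Pon3. In RGM cells they were -0.654 to 0.792 for Pon2 and -0.453 to 0.167 for Pon3. In run1 they were -5.1e-04 to 0.654 for Pon2, -0.425 to 0.596 for Pon3 and -0.632 to 0.734 for Mest. For the difference between lines they were -0.152 to 0.659 for Peg10, -0.340 to 1.11 for Pon2, -0.302 to 0.718 for Pon3 and -0.283 to 0.0567 for Copg2. For RGM against run1 they were -0.215 to 0.110 for Pon2 in wild-type cells, and -0.351 to 0.445 for Peg10, -0.194 to 0.295 for Ppp1r9a and -1.16 to 0.290 for Pon2 in knockout cells.

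Counts of called genes over the whole table moved more. The 4 calls over all libraries became 7 in DESeq2, 35 without the low-count filter, 10 with voom, 2 without the run term, 2 with cell line in place of run and 2 to 4 without single libraries. The replicate block gave 6 calls. The 0 calls in RGM cells became 2 in DESeq2, 7 without the filter, 9 when RGM libraries were fitted alone, 5 when these carried the block, and 0 to 1 without single libraries. The 2 calls in run1 became 4 in DESeq2, 46 without the filter, 1 when fitted alone, and 0 to 8 without single libraries (8 without knockout replicate 4). The 0 calls for the difference between lines became 1 without the filter. Calls between the wild-type lines, 3081 in all, ranged from 883 to 4087 and those between knockout lines, 3160, from 892 to 3531 when 1 library was left out; the lowest values lack RGM replicate 2 of that genotype. The cause was not tested beyond fewer libraries. Replicate numbers do not mark pairs in the labels: same-numbered libraries had r of -0.07, -0.07, 0.30 and 0.34, and the block changed no member's call. Without single libraries the difference was 0.168 to 0.644 for Asb4 and 0.032 to 0.401 for Klf14. Depth limits Mest in RGM knockout cells, Asb4 and Klf14. The fit to V6.5 cells alone equals that without wild-type replicate 4.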
